A study of Homo sapiens with 6 samples.

Results

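The keratin gene clusters of 12q13 and 17q21 were read from the H3AcK9 peak lists of SKOV3 WT cells, an established human ovarian carcinoma line. Every peak that shared at least 1 base with chr12:52500000-53400000, the window of the type II keratins with KRT8 and KRT18 at its end, or with chr17:38800000-39800000, the window of the type I keratins and keratin-associated genes, was taken as a member, on the hg19 positions of the lists. This gave 4830 peaks of 3983296 in all 5 lists, 2726 in the 12q13 window and 2104 in the 17q21 window. The untreated list held 447 of them, the vorinostat lists 1175 and 1127, and the romidepsin lists 1059 and 1022.

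Histone 3 acetylated at lysine 9 (H3AcK9) was immunoprecipitated and sequenced in 3 samples of SKOV3 WT cells, 1 without treatment and 1 each after 24 h with vorinostat or romidepsin at 1 times the IC50 of the drug. Per the sample labels, each treated sample was divided by the sequencing company and has 2 peak lists, while the untreated sample has 1. Other passages of the study speak of independent experiments or biological replicates instead, and the labels were followed here. The 2 lists of a treated sample are parts of 1 sample and not replicates, so a treated value is their mean unless a list is named, and differences between conditions could be neither tested nor checked in replicates. The lists also differ in how finely peaks were drawn. The narrowest peak of the untreated list is 127 bp and its shortest gap between peaks 509 bp, while the treated lists hold peaks of 50 or 51 bp and gaps from 201 or 205 bp. Numbers, widths and pieces of peaks therefore cannot be told apart from this difference. Covered length depends on it as well, since short gaps in the treated lists count as not covered. Values are also given for joined peaks, made by closing each gap no longer than 508 bp and then dropping what measured less than 127 bp. The same limits were applied to all 5 lists but left the untreated list as it was. In both windows they raised the covered length of every treated list. A line is a single source of cells, and the depth behind a peak is unknown, because a peak list holds no read counts.

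The annotation used here is on GRCh38 and was not converted to hg19, so no peak was placed on a gene and no covered length of KRT7, KRT8, KRT18, KRT19 or any other keratin gene is given. For the same reason the epithelial label of the line was not checked against its keratins. What can be compared are the ends and the middle of each window, read against the order of the genes in RefSeq. In that order KRT80 and KRT7 open the type II cluster, the hair keratins KRT86 to KRT82 and KRT75 follow, then the keratins of stratified epithelia with KRT5 and KRT1 among them and the hair follicle keratins KRT71 to KRT74, and KRT8 and KRT18 close it. On chromosome 17, KRT222, KRT24 to KRT28 and KRT10 come first, KRT20, KRT23, the keratin-associated genes and the hair keratins follow, and KRT19 stands near the end between KRT15 and the skin keratins KRT9, KRT14, KRT16 and KRT17. The neighbours outside the clusters are SMIM41 before KRT80, EIF4B after KRT18, SMARCE1 before KRT222 and EIF1 after KRT17, and whether peaks at the ends of the windows lie on such genes cannot be told apart from peaks on keratins.

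Keratins are the intermediate filament proteins of epithelial cells, and each filament pairs a type I with a type II keratin. Simple epithelia, of which most ovarian carcinomas keep the keratins, use KRT8 with KRT18 and KRT7 with KRT19. The basal layer of the skin uses KRT5 with KRT14, the layers above it KRT1 with KRT10, and the hair shaft uses hair keratins embedded in keratin-associated proteins. Vorinostat, a hydroxamic acid, and romidepsin, a cyclic depsipeptide, inhibit histone deacetylases, the enzymes that remove acetyl groups from histone tails, and H3AcK9 is a mark of active promoters and enhancers.

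Promoter sequences of keratin genes were read where the table used here holds one, and 1 of each gene list is shown as an example, which does not stand for its whole list. The 250 bases before the gene start are given from RefSeq on GRCh38.p14, 5′ to 3′ on the strand of the gene, with the motif TATAAA or its reverse complement TTTATA in capitals.
KRT20, simple-epithelium, chr17:40885243-40885492, minus strand: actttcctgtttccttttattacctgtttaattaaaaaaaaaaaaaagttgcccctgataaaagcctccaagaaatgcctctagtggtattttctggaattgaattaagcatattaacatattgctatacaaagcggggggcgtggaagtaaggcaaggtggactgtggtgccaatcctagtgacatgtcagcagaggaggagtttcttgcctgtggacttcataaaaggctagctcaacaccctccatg
KRT10, skin, chr17:40822615-40822864, minus strand: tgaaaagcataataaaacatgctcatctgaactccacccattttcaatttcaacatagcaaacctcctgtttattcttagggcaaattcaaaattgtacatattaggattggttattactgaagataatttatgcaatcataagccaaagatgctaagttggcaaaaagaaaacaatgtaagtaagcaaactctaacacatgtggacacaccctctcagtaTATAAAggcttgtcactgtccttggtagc
KRT31, hair, chr17:41397609-41397858, minus strand: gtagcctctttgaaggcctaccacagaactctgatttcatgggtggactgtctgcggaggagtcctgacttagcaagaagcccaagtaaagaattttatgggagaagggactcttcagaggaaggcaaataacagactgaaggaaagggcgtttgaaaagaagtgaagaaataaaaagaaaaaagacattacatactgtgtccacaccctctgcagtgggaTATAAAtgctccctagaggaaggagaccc
KRTAP4-1, keratin-associated, chr17:41184912-41185161, minus strand: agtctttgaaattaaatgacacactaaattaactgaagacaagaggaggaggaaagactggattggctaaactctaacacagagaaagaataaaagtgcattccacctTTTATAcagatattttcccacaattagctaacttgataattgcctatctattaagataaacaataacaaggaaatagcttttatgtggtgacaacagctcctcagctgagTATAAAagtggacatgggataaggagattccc
TATAAA was found on either strand in 29 of the 33 keratin-associated promoters with a sequence (87.9%), in 12 of the 18 hair keratin promoters (66.7%) and in 8 of the 14 skin and stratified keratin promoters (57.1%), a list that here includes KRT25 to KRT28 of the hair follicle. It was found in neither of the 2 simple-epithelium promoters with a sequence, KRT20 and an alternative start of KRT8, and in 11.1% of the 27305 promoters of the table. A CpG, a C followed by a G, was rare throughout. The median number per promoter was 1 for the keratin-associated genes, 1.5 for the hair keratins, 2 for the skin keratins and 11 for all promoters. None of the 67 promoters with a sequence, of 89 keratin and keratin-associated genes, held 10 or more CpGs, whereas 51.9% of all promoters did. The 22 genes without an entry in the table include KRT7, KRT18 and KRT19 of the simple-epithelium list and KRT1, KRT14, KRT16 and KRT17 of the skin list. KRT5 of the skin list, not shown, held 6 CpGs and no TATAAA. The median GC content was 40.4% for the keratin-associated, 45% for the hair, 43% for the skin and stratified and 58% for all promoters. The TATAAA shares were not adjusted for it. These counts describe the letters alone.

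In the 12q13 window all treated lists held more and narrower peaks than the untreated list and covered more bases. Untreated peaks numbered 234, vorinostat peaks 679 and 657, and romidepsin peaks 583 and 573. This was 2.85 times the untreated number with vorinostat and 2.47 times with romidepsin, against 2.42 and 2.36 over the whole lists. The covered length was 271516 bases untreated, 307189 and 299122 with vorinostat, and 303875 and 291972 with romidepsin. All 4 treated lists thus covered more of the window than the untreated list, with vorinostat by a factor of 1.12 and with romidepsin of 1.10, while over the whole lists the covered length changed by 0.879 and 0.920. In the window the factors were closer to untreated with peaks of at least 200 bp, at 1.02 and 1.03. Among peaks with a score of at least 1 they were 1.09 and 1.03. The median width was 540 bp untreated, 238 and 250 bp with vorinostat, and 278 and 281 bp with romidepsin. Among joined peaks the number and the width no longer stood apart in this way. There were 234 untreated, 300 and 299 with vorinostat, and 237 and 244 with romidepsin, and their median widths were 540 bp, 665.5 and 597 bp, and 700 and 592.5 bp. The covered length of joined peaks was 1.46 times the untreated one with vorinostat and 1.41 times with romidepsin. These factors are raised by the joining itself, which left the untreated list at 271516 bases and filled gaps in the treated lists only. The number with romidepsin was close to untreated and the width was not lower.

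In the 17q21 window the covered length of the deposited peaks was lower than untreated in all treated lists. It was 229167 bases untreated, 206421 and 179975 with vorinostat, and 202578 and 172945 with romidepsin, which gives factors of 0.843 and 0.819. Here the lists of a sample differed more than in 12q13, but none reached the untreated value. The direction depends on the joining of peaks, since the factors were 1.05 and 1.05 among joined peaks, with the lists of each drug on either side of the untreated value, and 1.16 and 1.11 with peaks merged across gaps of up to 1000 bp, against 0.475 and 0.404 among peaks with a score of at least 1. The peaks numbered 213 untreated, 496 and 470 with vorinostat, and 476 and 449 with romidepsin. Their median width was 635 bp untreated, 221.5 and 222.5 bp with vorinostat, and 229 and 227 bp with romidepsin. The factor was 0.350 and 0.359, compared with 0.452 and 0.518 in 12q13 and 0.381 and 0.404 over the whole lists. By their median the peaks of 17q21 were therefore wider than those of 12q13 in the untreated list and narrower in every treated list. Among joined peaks the numbers in 17q21 were 213 untreated, 236 and 250 with vorinostat, and 222 and 205 with romidepsin, and the factor of the median width was 0.652 and 0.764.

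**Figure D1:**
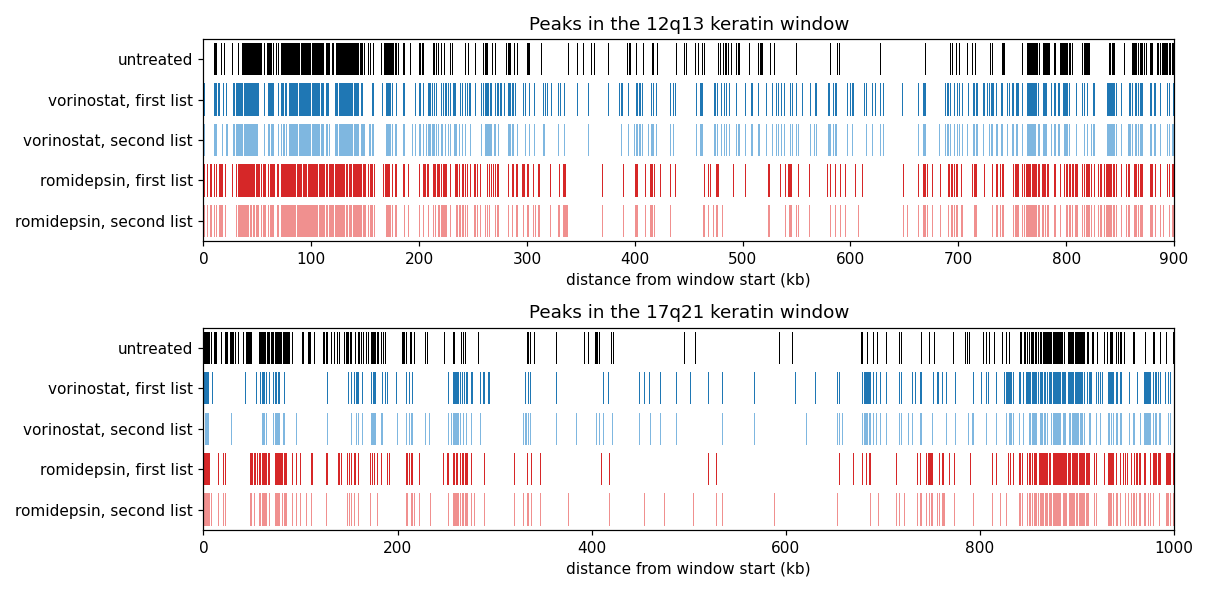
Position of every peak in the 12q13 (top) and 17q21 (bottom) windows, as distance from the window start in kb, with 1 row of bars for each of the 5 peak lists and bars to scale as far as the picture resolves them. The untreated peaks cover 59.99% of the first and 36.0% of the last 200 kb of 12q13 and 15.9% of the stretch between, and 47.1%, 43.3% and 8.06% in 17q21. The longest stretch without an untreated peak is 39274 bp in 12q13 and 50672 bp in 17q21.

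Acetylation was unevenly spread within both clusters. Each window was divided into its first 200 kb, its last 200 kb and the interior between them, a division that was chosen after the values were seen. In untreated cells, peaks covered 59.99% of the first part of 12q13, where KRT80 and KRT7 open the cluster in gene order, 15.9% of the interior, and 36.0% of the last part, at the end where the window holds KRT8 and KRT18. In 17q21 they covered 47.1% of the first part, 8.06% of the interior and 43.3% of the last part, the end that KRT19, KRT14, KRT16 and KRT17 share in gene order. Which genes each part holds was not read. The interior was the least covered part of both windows in all 5 lists.

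The first part of 12q13 was the most densely covered part of both windows. Its first 100 kb segment, chr12:52500001-52600000, held 63211 covered bases untreated, 60188 and 59174 with vorinostat, and 70507 and 69061 with romidepsin. The next, chr12:52600001-52700000, held 56770 untreated, 53191 and 53146 with vorinostat, and 58446 and 56920 with romidepsin. Both lay far up among the 27177 segments of the 20 chromosomes with peaks in all lists, at the 99.3 and the 98.7 percentile of the untreated list, whose median segment held 5489 covered bases. The folds were 0.944 and 0.937 with vorinostat and 1.10 and 1.02 with romidepsin, so vorinostat lists lay just below and romidepsin lists just above the untreated value. Over the whole first part the vorinostat fold of 0.941 became 1.13 among joined peaks, and the romidepsin fold of 1.06 became 1.30. The segment just before the window, chr12:52400001-52500000, held 47641 covered bases untreated, 43052 and 41645 with vorinostat, and 51734 and 50699 with romidepsin.

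The widest untreated peaks of 12q13 stood in this part, and in the treated lists several narrower peaks lay in their place. The widest, chr12:52535688-52554091, measured 18404 bp. In its place were 8 and 10 vorinostat peaks, covering 15150 and 14314 of its bases, and 8 and 12 romidepsin peaks, covering 15901 and 14501. The second, chr12:52571542-52589716, measured 18175 bp, of which vorinostat peaks covered 14457 and 14689 bases and romidepsin peaks 16538 and 16522. The third, chr12:52631673-52643966, measured 12294 bp, and 10990 and 10769 of its bases were covered with vorinostat and 9788 and 9183 with romidepsin. In each list, these 3 peaks kept between 74.7% and 91.0% of their bases. The 4406 bp at chr12:52579561-52583966, inside the second of them, were the longest run of the window covered in all 5 lists. Among joined peaks far fewer pieces were left. The first of the 3 then held 3 and 3 vorinostat and 1 and 2 romidepsin peaks, and the third 1 and 1 vorinostat and 2 and 3 romidepsin peaks.

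The interior of 12q13 was more widely covered with vorinostat than in untreated cells in both lists. Peaks covered 79488 bases of it untreated, 120672 and 114355 with vorinostat, and 87800 and 82897 with romidepsin. The fold was 1.48 with vorinostat and 1.07 with romidepsin, 1.98 and 1.46 among joined peaks, and 2.32 and 1.70 with peaks merged across gaps of up to 1000 bp. The romidepsin fold was below 1 in other settings, at 0.920 with peaks of at least 200 bp and at 0.861 with ends of 300 kb. The largest fold stood at chr12:53100001-53200000, the untreated segment with the fewest covered bases in the window. It held 6721 covered bases untreated, 19660 and 19042 with vorinostat, and 14368 and 11650 with romidepsin, a fold of 2.88 and 1.94. The untreated gap of 39274 bp at chr12:53128645-53167918 lies in this segment, whereas no gap in a treated list of this window exceeded 17300 bp.

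The other interior segments moved less. At chr12:53000001-53100000, 12717 bases were covered untreated, 20267 and 19779 with vorinostat, and 13380 and 11478 with romidepsin. With romidepsin the 2 lists lay on either side of the untreated value here. At chr12:52800001-52900000, the segment with the lowest romidepsin fold of the window, 0.754, 13230 bases were covered untreated, 17020 and 14970 with vorinostat, and 8937 and 11027 with romidepsin, so the drugs lay on opposite sides of untreated. At chr12:52700001-52800000, next to the first part, the values were 28210 untreated, 40106 and 35947 with vorinostat, and 34572 and 33354 with romidepsin.

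Single peaks of this interior fared differently. The widest untreated peak there, chr12:52761293-52763972, measured 2680 bp, and the treated lists covered between 1988 and 2374 of its bases. The next widest, chr12:53016050-53018495, measured 2446 bp and was all but gone, with 342 bases covered in the second vorinostat list and 0 in the other 3. Not far from it, chr12:53044320-53045177, a run of 858 bp with no untreated peak within 500 bp, was covered in all 4 treated lists. The run chr12:52974190-52975214, of 1025 bp, was covered in both vorinostat lists and in neither romidepsin list nor the untreated list.

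The last part of 12q13, at the KRT8 and KRT18 end, was covered about as widely with vorinostat as untreated and more widely with romidepsin. It held 72048 covered bases untreated, 73138 and 72447 with vorinostat, and 87122 and 83094 with romidepsin, a fold of 1.01 and 1.18. Among joined peaks both were higher, at 1.41 and 1.54. Its final segment, chr12:53300001-53400000, held 38411 untreated, 31132 and 32323 with vorinostat, and 45539 and 44494 with romidepsin. At 0.826 this was the lowest vorinostat fold of the window. The segment just past the window, chr12:53400001-53500000, held 42187 untreated, 42602 and 41810 with vorinostat, and 50733 and 49645 with romidepsin.

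The widest peak of the last part, chr12:53263453-53274146, measured 10694 bp. Vorinostat lists covered 8539 and 8736 of its bases and romidepsin lists 8897 and 9184, so it was kept much like the wide peaks at the other end. A peak of 4227 bp at chr12:53390014-53394240 went the other way, with 1015 and 633 bases covered with vorinostat and 969 and 684 with romidepsin. The 1698 bp at chr12:53390305-53392002, inside it, were the longest untreated run of the window without a treated peak.

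**Figure D2:**
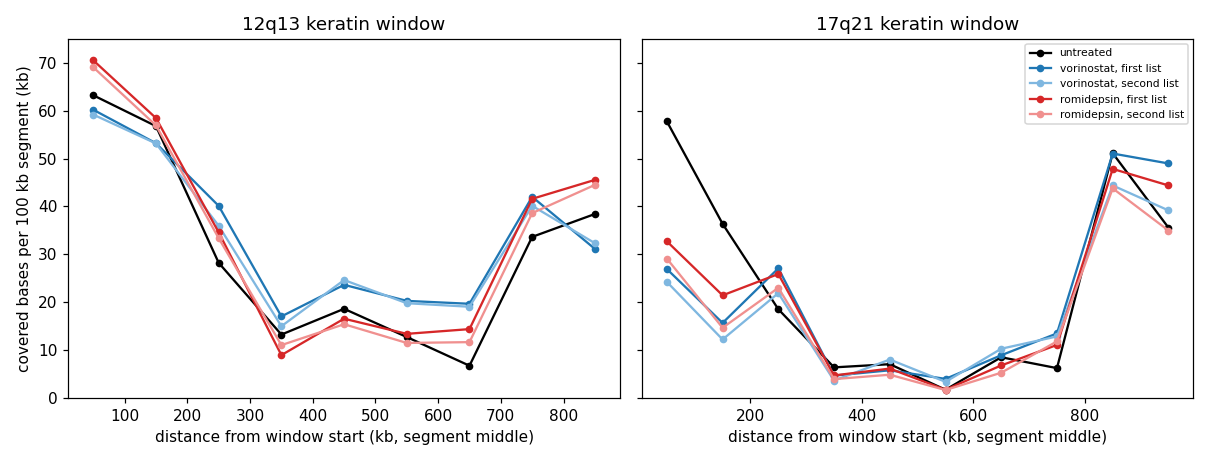
Covered bases in kb per 100 kb segment (y) by distance of the segment middle from the window start in kb (x), for 12q13 (left) and 17q21 (right), with 1 line for each of the 5 lists. In the first segment of 17q21 the untreated list stands at 57759 covered bases and the treated lists between 24235 and 32705, while at the last but 1 segment of that window all lists lie between 43767 and 51113.

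The first part of 17q21, toward KRT222, KRT24 to KRT28 and KRT10 in gene order, was covered less than in untreated cells after either drug. It held 94126 covered bases untreated, 42574 and 36438 with vorinostat, and 54131 and 43745 with romidepsin, a fold of 0.420 and 0.520. Among peaks with a score of at least 1 the fold was 0.242 and 0.293, among joined peaks 0.514 and 0.631, and with peaks merged across gaps of up to 1000 bp 0.639 with vorinostat. It stayed below 1 in every setting tried. The first segment, chr17:38800001-38900000, held 57759 covered bases untreated, 26914 and 24235 with vorinostat, and 32705 and 29099 with romidepsin. The second, chr17:38900001-39000000, held 36366 untreated, 15660 and 12203 with vorinostat, and 21426 and 14646 with romidepsin, and its folds of 0.383 and 0.496 were the lowest of both windows.

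In this part even wide untreated peaks were covered in part only. The widest peak of 17q21, chr17:38857210-38864887, measured 7678 bp, of which vorinostat lists covered 4549 and 3780 bases and romidepsin lists 4576 and 5427. A peak of 7049 bp that crosses the window edge, chr17:38799219-38806267, kept 4809 and 4461 bases with vorinostat and 5461 and 4807 with romidepsin. Another, chr17:38873507-38879487 with 5981 bp, kept 4206 and 4360 bases with vorinostat and 4764 and 4534 with romidepsin. A peak of 3469 bp at chr17:38846379-38849847 kept 374 and 293 bases with vorinostat and 1124 and 925 with romidepsin, so peaks a short way apart differed much in the share left. The longest untreated runs of 17q21 without a treated peak, 1666 bp at chr17:38923561-38925226 and 1485 bp at chr17:38907915-38909399, both lie in the second segment. The lower coverage began before the window, since chr17:38700001-38800000 had folds of 0.584 and 0.728, whereas chr17:38600001-38700000 had 1.34 and 1.35.

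The interior of 17q21 was the barest part of both windows. In gene order KRT20, KRT23 and the keratin-associated genes lie between the ends of the cluster. Peaks covered 48355 of its 600 kb untreated, 63826 and 59985 bases with vorinostat, and 56228 and 50465 with romidepsin, a fold of 1.28 and 1.10. The direction depends on the setting. Joined peaks gave 1.57 and 1.45, peaks with a score of at least 1 gave 0.669 and 0.471, ends of 100 kb gave 0.910 and 0.863, and ends of 300 kb gave 0.740 with romidepsin. The segment with the fewest covered bases, chr17:39300001-39400000, held 1709 untreated, 3967 and 3352 with vorinostat, and 1703 and 1641 with romidepsin. Below the minimum of 5000 untreated covered bases it was left out of the fold counts. The second barest, chr17:39500001-39600000, held 6218 untreated, 13469 and 12840 with vorinostat, and 11057 and 11804 with romidepsin, and its folds of 2.12 and 1.84 were the largest of the counted segments of the window. The gap of 50672 bp in the untreated list, chr17:39342787-39393458, was the longest of both windows in any list.

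Next to the first part, chr17:39000001-39100000 went against its neighbours. It held 18519 covered bases untreated, 27064 and 21886 with vorinostat, and 25874 and 22994 with romidepsin, a fold of 1.32 for either drug. Within it, the widest untreated peak of the interior, chr17:39004600-39007785 with 3186 bp, kept 612 and 400 bases with vorinostat and 875 and 834 with romidepsin. The 1306 bp at chr17:39064255-39065560 were covered in all 4 treated lists and in no untreated peak, the longest such run of 17q21. Within 500 bp of this run lies 1 untreated peak. So this segment held a run covered in treated lists only and an untreated peak little covered in them.

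The last part of 17q21, toward KRT19 with KRT14, KRT16 and KRT17, had treated lists both above and below the untreated list. It held 86686 covered bases untreated, 100021 and 83552 with vorinostat, and 92219 and 78735 with romidepsin, and the lists of each drug lay on either side of the untreated value. The folds of 1.06 and 0.986 became 1.33 and 1.29 among joined peaks and 0.632 and 0.489 among peaks with a score of at least 1. Within it, chr17:39600001-39700000 held 51113 untreated, 51047 and 44380 with vorinostat, and 47837 and 43767 with romidepsin. The peak chr17:39690726-39697383, of 6658 bp, kept 6099 and 5221 bases with vorinostat and 6271 and 4497 with romidepsin. The peak chr17:39675195-39680282, of 5088 bp, was covered whole, 5088 bases, by 1 peak in each romidepsin list, and 4865 and 4634 of its bases were covered with vorinostat. The segment just past the window, chr17:39800001-39900000, held 57631 covered bases untreated, 58675 and 52674 with vorinostat, and 64332 and 63486 with romidepsin.

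The contrast between the ends and the interior was read as a ratio of percent covered. In 12q13, the first part was covered 3.77 times as densely as the interior in untreated cells, 2.40 times with vorinostat and 3.73 times with romidepsin. The last part, at the KRT8 and KRT18 end, was covered 2.27 times as densely as the interior untreated, 1.55 times with vorinostat and 2.49 times with romidepsin. With vorinostat the ratios of the first and last part were lower than untreated, also among joined peaks at 2.15 and 1.62, where romidepsin stood at 3.36 and 2.40. Among peaks with a score of at least 1 the ratio of the first part was 3.84 untreated, 3.10 with vorinostat and 3.06 with romidepsin, and with merging across 1000 bp it was 3.43, 1.78 and 2.56, so for this part the gap between the drugs was smaller or gone there. In 17q21, the ratio of the first part to the interior was 5.84 untreated, 1.91 with vorinostat and 2.75 with romidepsin. For the last part, toward KRT19, it was 5.38, 4.45 and 4.81. With ends of 100 kb, a division also chosen after the values were seen, the last part of 17q21 stood at 2.10 untreated, 2.85 with vorinostat and 2.71 with romidepsin, so the order of the conditions at this end depends on where the line is drawn.

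Folds past 1.5 in either direction were counted over the segments with at least 5000 untreated covered bases, 18 of the 19 in the windows and 14008 in all. Vorinostat was up in 3 of the 18, 2 in 12q13 and 1 in 17q21, against 6.18% of all segments, and down in 3, all in 17q21, against 23.1%. Romidepsin was up in 2, 1 in each window, against 7.8%, and down in 2, both in 17q21, against 18.5%. Among joined peaks 9 segments were up with vorinostat and 7 with romidepsin, and 2 were down with each drug, so the counts up depend on the joining. For joined peaks no share over all segments was computed, so these counts have nothing to be read against. The 18 segments are too few to read any of these shares closely. The segments down with romidepsin were the first 2 of 17q21, and vorinostat had these and chr17:39100001-39200000, which held 6376 covered bases untreated, 4650 and 3624 with vorinostat, and 4690 and 3922 with romidepsin. The median fold over the 9 counted segments of 12q13 was 1.22 with vorinostat and 1.10 with romidepsin, and over the 9 of 17q21 it was 0.978 and 0.779, beside 0.827 and 0.905 over all segments counted. Both drugs were compared with the same untreated list.

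**Figure D3:**
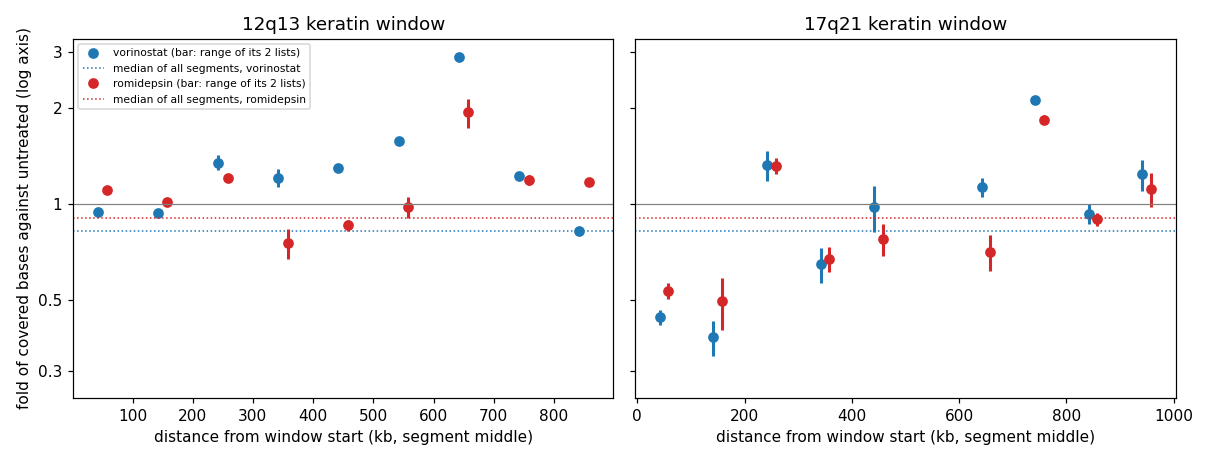
Fold of covered bases against untreated on a log axis (y) by distance of the segment middle from the window start in kb (x), for the 18 counted segments of 12q13 (left) and 17q21 (right). Points are the mean of the 2 lists of a drug, bars their range, and dotted lines the median fold of all segments, 0.827 with vorinostat and 0.905 with romidepsin. The first 2 segments of 17q21 lie lowest, and the largest folds are 2.88 in 12q13 and 2.12 in 17q21, both with vorinostat.

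The drugs can also be set against each other, in the same 18 segments. Both vorinostat lists covered more than both romidepsin lists in 7 of the 18 segments, against 22.6% of all segments, and both romidepsin lists covered more in 4, against 50.9%. The 7 were 5 adjoining segments of 12q13, from chr12:52700001 to 53200000, which make up its interior, and 2 segments of 17q21, from chr17:39400001 to 39600000. Both vorinostat lists were also higher in chr17:39300001-39400000, which had too few untreated covered bases to be counted. The 4 were the first 2 and the last segment of 12q13 and the first of 17q21. Among joined peaks these counts were 7 and 4 as well, for which no share over all segments was computed. In 12q13, therefore, vorinostat lists were higher through the interior and romidepsin lists at both ends, apart from chr12:53200001-53300000, where the lists overlapped. In base positions the drugs shared less than the 2 lists of 1 sample did, which are parts of the same sample. In 12q13 the shared bases were 77.2% of the union for the vorinostat lists, 82.7% for the romidepsin lists and between 41.5% and 43.2% for a vorinostat with a romidepsin list. In 17q21 these values were 64.1%, 61.6% and between 34.3% and 37.0%. For the untreated list with a treated list they were between 39.0% and 42.9% in 12q13 and between 30.1% and 32.2% in 17q21. The drugs thus shared no less with each other than the untreated list shared with either in 17q21, and about as much in 12q13. Within a sample, 200 vorinostat and 215 romidepsin peaks of 12q13, and 48 and 47 of 17q21, matched in start and end between the lists. Between the drugs, and between the untreated list and a treated list, 0 did so.

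An untreated peak was counted as kept where it shared at least 1 base with a peak in both lists of a drug. In 12q13, 164 of 234 were kept with vorinostat (70.1%, exact Clopper-Pearson 95% interval 63.8% to 75.9%), against 51.9% of the 352674 untreated peaks on the 20 chromosomes. With romidepsin 158 were kept (67.5%, 61.1% to 73.5%), against 55.8%. In 17q21, 134 of 213 were kept with vorinostat (62.9%, 56.0% to 69.4%) and 112 with romidepsin (52.6%, 45.6% to 59.4%). Where at least 50% of an untreated peak had to be covered, the kept share was 37.2% and 44.4% in 12q13 and 25.4% and 19.7% in 17q21. The share of all untreated peaks under this rule was not computed, and the 51.9% and 55.8% above do not apply to it. The intervals cover counting error only, and neighbouring peaks are not independent of each other. The shares of the windows and of all untreated peaks are not matched for how densely treated peaks lie.

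A wide peak has more bases to share and is more often kept by construction, so shares are given by width, beside those of all untreated peaks of the same width. An untreated peak is also more often kept by construction where treated peaks lie densely, and no share here accounts for that. Treated lists covered between 32.4% and 34.1% of 12q13 and between 17.3% and 20.6% of 17q21. Over all segments of 100 kb, the median in the treated lists was between 4907 and 5685 covered bases. In 12q13, vorinostat kept 53.4% of the 103 untreated peaks under 500 bp, 80.6% of the 108 from 500 bp to under 2000 bp and 95.7% of the 23 of 2000 bp or more, beside 31.9%, 62.6% and 98.4% of all untreated peaks. With romidepsin these shares were 50.5%, 77.8% and 95.7% in 12q13, beside 36.1%, 67.1% and 98.8% of all. In 17q21, vorinostat kept 45.1% of the 91 narrow, 69.9% of the 93 intermediate and 96.6% of the 29 wide peaks, and romidepsin 28.6%, 62.4% and 96.6%. These shares are descriptions, and their differences were not tested. The wide peaks differed in how much of them was left. Of their bases, vorinostat lists covered 75.9% in 12q13, 54.7% in 17q21 and 61.8% in all wide peaks, and romidepsin lists 77.9%, 58.0% and 63.4%. A wide peak held on average 4.15 vorinostat and 4.09 romidepsin peaks in 12q13, and 2.90 and 3.16 in 17q21, as the lists draw them.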

How the data were processed

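H3AcK9 was measured by ChIP-seq in SKOV3 WT cells, and 5 deposited peak lists were used, 1 of the untreated sample and 2 of each treated sample. The 3 input samples have no list and enter no result. Per the submitters' processing notes and the study's methods, the authors aligned reads with BWA or related tools and called peaks with MACS 1.4.2. Each peak has a score from the authors, of no stated scale, which served only as a filter. The labels name hg38. The lists were read as hg19, because each holds contig names of that build and 2426 to 6693 peaks past the ends of hg38 chromosomes. No coordinate was converted, and RefSeq GRCh38.p14 gave gene names, gene order and promoters only.

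Covered length is the union of peaks. Segments of 100 kb with at least 5000 untreated covered bases were counted past a fold of 1.5, and the background was all such segments of the 20 chromosomes with peaks in all lists. Python 3.11.15, NumPy 2.4.6, pandas 2.3.3, SciPy 1.17.1 and Matplotlib 3.10.9 were used. Peak counts of the windows equalled those of bedtools 2.31.1, and the interval functions, tested on simulated data, recovered 12 of 12 quantities. With 1 ChIP sample per condition no test was made between conditions.

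The windows and gene lists were chosen with earlier results of these data known. Named regions were, in each window, the 3 widest untreated peaks, the 3 segments with the most and the 2 with the fewest untreated covered bases, and the segments with the extreme folds of each drug. Other single peaks and runs were chosen after their values were seen, as the widest or longest of their kind. The same rule named KRT7, KRT8, KRT18, KRT19, KRT5, KRT14, KRT1 and KRT10, for which no gene value was computed. Alternatives were each list alone, a minimum score of 1, a minimum width of 200 bp, merging across 300 or 1000 bp, peaks with most of their bases in the window, coverage of most of an untreated peak, segments of 50 kb, a 2-fold limit, ends of 100 or 300 kb, and joined peaks, for which gaps no longer than 508 bp were closed and peaks narrower than 127 bp dropped, limits set just under the shortest gap and at the narrowest peak of the untreated list. The ends and the joining were added after seeing the data.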

Additional observations from a re-analysis of the deposited data

Results flagged for a closer look

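In 6 segments of the windows, both lists of one drug lay above the untreated value and both lists of the other below it. The difference was not tested, since each drug has 1 sample and both are set against the same untreated list. How many of all segments split in this way was not counted, so the 6 cannot be called particular to the windows. At the 2 ends of 12q13, vorinostat was lower and romidepsin higher. The folds with vorinostat and romidepsin were 0.944 and 1.10 at chr12:52500001-52600000, 0.937 and 1.02 at chr12:52600001-52700000, and 0.826 and 1.17 at chr12:53300001-53400000.

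In the interiors, vorinostat was higher and romidepsin lower in 3 segments. The folds were 1.21 and 0.754 at chr12:52800001-52900000, 1.30 and 0.858 at chr12:52900001-53000000, and 1.13 and 0.709 at chr17:39400001-39500000. None of these 12 folds passed 1.5 in either direction.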

How the results depend on the processing

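The 48 results had 404 alternative values, of which 328 stayed within 1.5 times the reported value or, for shares of kept peaks, within its interval. This does not mean that they kept their direction. Of 214 folds and drug ratios, 35 lay on the other side of 1, among them the covered length of 17q21 at 1.16 with vorinostat and 1.11 with romidepsin after merging across 1000 bp. With 1 sample per condition and peak lists without reads, neither replicate error nor depth is known. No paired analysis was possible because each condition has 1 ChIP sample and no test was made. No replicate could be left out for the same reason. The cause of the moves below was not tested unless named. Counts of segments and shares of kept peaks below have no matching value over all segments or all untreated peaks.

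For joined peaks, with gaps no longer than 508 bp closed and peaks narrower than 127 bp dropped, a setting chosen after seeing the data, the fold of the median width turned to 1.17 with vorinostat and 1.20 with romidepsin in 12q13 and was 0.652 and 0.764 in 17q21. The fold of peak number became 1.28 and 1.03 in 12q13 and 1.14 and 1.00 in 17q21, vorinostat kept 55.4% of the untreated peaks of 17q21, and 9 segments were up with vorinostat and 7 with romidepsin. Closing gaps lowers the number of treated peaks and raises their width and covered length by construction, while the untreated list stays unchanged.

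With peaks merged across 1000 bp, the fold of the median width in 12q13 turned to 1.49 with vorinostat and 1.24 with romidepsin. Merging joins any peaks at most 1000 bp apart, and whether these are pieces of 1 peak was not tested. The fold of peak number became 1.22 and 1.04 in 12q13 and 1.35 with romidepsin in 17q21, and that of covered bases 2.32 and 1.70 in the interior of 12q13 and 0.639 with vorinostat in the first part of 17q21. Segments up then numbered 10 with vorinostat and 7 with romidepsin, and segments down with romidepsin 0. Merging across 300 bp gave 5 segments up with vorinostat.

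Among peaks with a score of at least 1, the fold of peak number in 17q21 turned to 0.965 with romidepsin and was 1.19 with vorinostat. The folds of covered bases in vorinostat and romidepsin were 0.475 and 0.404 in 17q21, 0.242 and 0.293 in its first part, 0.669 and 0.471 in its interior and 0.632 and 0.489 in its last part. The ratio of the first part to the interior of 17q21 was 4.49 with romidepsin and that of the last part 7.31. Kept peaks were 18.9% and 28.0% in 12q13 and 12.5% and 7.81% in 17q21. Segments up were 1 and 1, segments down 6 and 6, and vorinostat was higher in 3 segments and romidepsin in 1.

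With a width of at least 200 bp, kept peaks were 58.9% with vorinostat in 12q13 and 47.3% and 43.5% in 17q21, where the folds of peak number were 1.42 and 1.45 and those of median width 0.549 and 0.545. Segments down with romidepsin were 6. Where most of an untreated peak had to be covered, kept peaks were 37.2% and 44.4% in 12q13 and 25.4% and 19.7% in 17q21. With the first list alone, romidepsin kept 65.7% in 17q21, and with the second alone 4 segments were down with romidepsin. Either list alone, where 1 list is set against 1, put vorinostat higher in 11 segments and romidepsin in 7.

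Segments of 50 kb, which are more in number by construction, gave 9 up and 6 down with vorinostat and 6 up and 4 down with romidepsin. Past 2-fold, romidepsin had 0 up and 1 down. With ends of 100 kb, the untreated ratios of the first and last part of 17q21 to its interior were 3.40 and 2.10, and the ratio of the last part 2.85 with vorinostat and 2.71 with romidepsin. With ends of 300 kb, the ratio of the first part was 3.51 and 5.60, and that of the last part 7.39 with romidepsin.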
